A study of Mus musculus with 51 samples.

Results

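The comparison described here sets cells of the mouse oesophagus with much EpCAM protein on their surface against cells with little of it, at the 7-week point of a Krt5-SmoM2 time series. SmoM2 is a permanently active form of Smoothened, the membrane protein that passes on the Hedgehog signal, and the genotype label pairs it with Krt5, a keratin gene of basal squamous cells. The members were all libraries whose titles carry 7w and an EpCAM gate, which makes 8 of the 51 libraries of the series: 4 EpCAM-high and 4 EpCAM-low. Both gates carry the same genotype label, so the labels set them apart by the gate and not by the genotype. The labels give no age or strain for these libraries, do not say from what the weeks were counted, and do not say when or how SmoM2 was switched on or in which share of the cells. They do not tie replicate numbers to animals either, so the p-values below measure the spread between these libraries, which may be technical. The other groups used are the matching EpCAM-high and EpCAM-low cells at 3 weeks (4 libraries each, same genotype), wild-type oesophageal cells of CD1 mice sorted as EpCAM-low (WT, 6 libraries), EpCAM-high Krt5-SmoM2 cells of CD1 mice without a time label (SmoM2, 6 libraries), and EpCAM-high cells of Krt5-SmoM2-Krt8YFP mice of mixed background sorted with or without the YFP signal (K8YFP+ and K8YFP-, 3 libraries each). The raw sample names of the 7-week and 3-week libraries carry different prefixes, so whatever batch these may mark cannot be told apart from the week.

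In Hedgehog signalling a ligand binds the receptor Patched, which releases Smoothened, and Smoothened then turns the GLI transcription factors into activators. The genes for the receptor (Ptch1) and for Gli1 are themselves targets, so their RNA is commonly read as a gauge of the pathway. The mouse oesophagus is lined by a keratinised squamous epithelium whose basal layer makes Krt5 and Krt14 and whose upper layers make Krt4 and Krt13, whereas columnar epithelia of the gut make Krt8 and Krt18 and much EpCAM.

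Libraries held 6600018 to 8336606 counts in the EpCAM-high gate and 5061987 to 7465172 in the EpCAM-low gate, and levels are given as CPM, in which each count is scaled to the total count of its library. The limit of 3 counts over a gate corresponds to 0.103 and 0.121 CPM. Mitochondrial genes took 2.44 to 2.70% of counts in the EpCAM-high and 2.13 to 2.33% in the EpCAM-low libraries, and ribosomal protein genes took 2.45 to 2.70% and 3.29 to 3.59%, so both shares differed between the gates without overlap. Their part in the results was not tested. Squamous genes were expressed in both gates. Krt5, Krt14, Trp63, Krt4 and Krt13 were at 2964, 851, 983, 515 and 3581 CPM in EpCAM-high cells. In EpCAM-low cells they were at 2888, 1438, 688, 5242 and 7393 CPM. Over 10 genes chosen to check for squamous epithelium the sums were 9599 to 12005 CPM in EpCAM-high and 19269 to 21287 CPM in EpCAM-low libraries. Markers of other cell types were low. Summed over 10 Langerhans cell and MHC class II markers the EpCAM-high libraries held 17.9 to 26.5 CPM and the EpCAM-low libraries 10.5 to 13.3, without a count of the defining Cd207. Of 17 other leukocyte markers 7 had no count in the 8 libraries, and the sums were 6.597 to 10.3 and 6.43 to 8.17 CPM. Summed over 14 fibroblast markers the EpCAM-high libraries held 41.8 to 56.5 CPM and the EpCAM-low libraries 38.98 to 50.4. For 10 endothelial markers the sums were 19.4 to 22.4 and 11.8 to 18.5 CPM, with Pecam1 higher in the EpCAM-high gate (15.1 ± 2.18 against 9.397 ± 2.65 CPM, log2 fold 0.66 ± 0.18, adjusted p = 0.00546) while the defining Cdh5, Kdr and Cldn5 averaged 0.417, 0.286 and 0.139 CPM there. Sums for 12 muscle markers (9.98 to 17.6 against 10.7 to 12.4 CPM), 12 Schwann, neural and melanocyte markers (25.2 to 29.4 against 21.7 to 26.2) and 13 enteroendocrine, Merkel and tuft cell markers (9.98 to 12.3 against 9.88 to 13.5) overlapped between the gates.

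Epcam RNA followed the sort. It stood at 309, 278, 284 and 281 CPM in the EpCAM-high libraries and 141, 129, 129 and 129.9 CPM in the EpCAM-low libraries, and the 2 sets of libraries did not overlap (288 ± 14.4 against 132 ± 5.74 CPM, SD over 4 libraries each). On the log2 scale the gates differed by 1.08 ± 0.07 (SE, edgeR quasi-likelihood test, Benjamini-Hochberg adjusted p = 2.13e-12), a 2.11-fold difference of RNA between cells chosen on the protein. All log2 folds below are EpCAM-high over EpCAM-low, each adjusted p comes from the same edgeR test over 16621 genes, and a gene is said to have passed, risen or fallen when its adjusted p was under 0.05. The gates were far apart: 3312 genes (19.9% of those tested) were higher in EpCAM-high cells and 3608 (21.7%) were lower, so 41.6% passed in all. With a log2 fold of at least 1 in either direction the higher genes outnumbered the lower ones, 1150 (6.92%) against 686 (4.13%), and with at least 3 they numbered 201 against 41. For 5632 genes (33.9%) the 4 and 4 libraries did not overlap in CPM. These shares of all genes are the background for the list counts below. Replicate numbers are shared by the gates, and where a fit with the number as a block changed a call or clearly moved a count, its value is given as that of the replicate block. In such bulk samples fewer cells that make an RNA and less of that RNA per cell cannot be told apart.

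Among the genes of the Hedgehog pathway, Ptch1, Gli1 and Gli2 separated the gates most clearly. Of 23 genes in the Hedgehog list 18 were tested, and 9 were higher and 5 lower in EpCAM-high cells, with a median log2 fold of 0.53 beside -0.02 over all tested genes. The receptor gene Ptch1 and the GLI genes come first, followed by what a motif search found in their promoters. Ptch1, which encodes the main Hedgehog receptor, was at 1757, 1614, 1948 and 1771 CPM in the EpCAM-high libraries and 107, 81.8, 67.998 and 101 CPM in the EpCAM-low libraries. The lowest EpCAM-high library lay far above the highest EpCAM-low one (log2 fold 4.27 ± 0.12, adjusted p = 4.82e-18). Gli1, an activator that exists mainly as a product of the pathway, was at 143, 169, 173 and 182 CPM in the EpCAM-high libraries and 10.98, 6.32, 6.13 and 9.96 CPM in the EpCAM-low libraries. The difference came to 19.1-fold (log2 fold 4.26 ± 0.13, adjusted p = 1.99e-17). Gli2, which carries much of the activating signal, was at 146, 162, 165 and 192 CPM in the EpCAM-high libraries and 11.4, 10.9, 5.97 and 10.7 CPM in the EpCAM-low libraries, and all 4 EpCAM-high libraries were above all 4 EpCAM-low ones (log2 fold 4.06 ± 0.13, adjusted p = 3.46e-17). Gli3, which acts chiefly as a repressor, went the other way, at 17.3, 25.4, 27.7 and 26.99 CPM in the EpCAM-high libraries and 40.6, 44.8, 40.4 and 45.5 CPM in the EpCAM-low libraries, with no overlap (log2 fold -0.85 ± 0.13, adjusted p = 6.16e-06).

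RefSeq promoter windows (250 bases before a transcript's start to 50 after it, build GRCm38.p6) were searched on both strands for the GLI consensus GACCACCCA and for ACCACCC, the 7 letters inside it, because Ptch1 and Gli2 rose together. Among 19 Hedgehog-list genes with a window, only Gli2 held the shorter string and none held the longer one, and Gli1 had no entry in the table. The upstream 250 bases of Gli2 (chr1:119053620-119053869, minus strand) and of Ptch1 (chr13:63565736-63565985, minus strand) are shown 5′ to 3′, with capitals for the reverse complement of ACCACCC, which begins 205 bases before the Gli2 start.
Gli2: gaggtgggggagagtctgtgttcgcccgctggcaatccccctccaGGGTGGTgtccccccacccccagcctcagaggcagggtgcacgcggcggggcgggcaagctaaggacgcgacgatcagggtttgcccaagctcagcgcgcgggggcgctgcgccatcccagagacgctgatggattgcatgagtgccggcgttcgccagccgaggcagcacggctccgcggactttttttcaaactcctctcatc
Ptch1: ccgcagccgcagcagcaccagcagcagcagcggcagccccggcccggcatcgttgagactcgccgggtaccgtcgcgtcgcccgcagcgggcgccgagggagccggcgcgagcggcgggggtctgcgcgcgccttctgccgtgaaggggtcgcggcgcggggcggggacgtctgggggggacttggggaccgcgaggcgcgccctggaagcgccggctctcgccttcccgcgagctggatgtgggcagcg
The shorter string is common. It occurred in 4.61% of all 32851 windows, in 5.75% of the 696 genes with a window that were higher with a log2 fold of at least 1, in 6.72% of the 372 such lower genes and in 5.74% of the 10125 tested genes with a window. The Ptch1 window belongs to a transcript that starts inside the gene as GENCODE draws it.

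Among the transducers downstream of Patched, 5 of 7 were higher and none lower. Smo itself was at 213, 237, 223 and 255 CPM in the EpCAM-high libraries and 96.3, 101, 92.3 and 95.1 CPM in the EpCAM-low libraries, where reads of the SmoM2 transgene and of the endogenous gene are counted together (log2 fold 1.23 ± 0.07, adjusted p = 1.05e-12). The gates did not overlap. The EpCAM-low mean of 96.1 CPM stood beside 75.02 ± 12.7 CPM in the 6 WT libraries. Sufu, an inhibitor that holds GLI proteins in the cytoplasm, rose by 0.99 ± 0.10 (38.3 against 18.5 CPM). Kif7, a ciliary kinesin of the pathway, rose by 2.31 ± 0.19, Gpr161, a ciliary receptor that restrains it, by 2.28 ± 0.14, and the kinase gene Stk36 by 1.70 ± 0.47 from a low level (2.18 against 0.6199 CPM). Among the co-receptors that help Patched bind its ligand, Cdon (-0.52 ± 0.10), Boc (-0.32 ± 0.11) and Gas1 (-0.33 ± 0.13) were lower, and the libraries of the 2 gates overlapped for Boc and Gas1. With library totals in place of TMM scaling, 1 of these 3 was still called. Disp1, needed to release ligand from cells that make it, fell by 0.72 ± 0.16. The ligand genes Shh, Ihh and Dhh stayed below the level for testing, at most 0.495 CPM on average in either gate, and so did the target Hhip, with 1 count in 1 EpCAM-high library and none in the other 7. Of 18 genes of the primary cilium, the organelle through which the signal runs, 7 were higher and 1 (Bbs2, -0.75 ± 0.13) lower. Tulp3, which brings receptors into the cilium, rose by 1.42 ± 0.12 and Arl13b, a ciliary GTPase, by 0.76 ± 0.10.

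**Figure D1:**
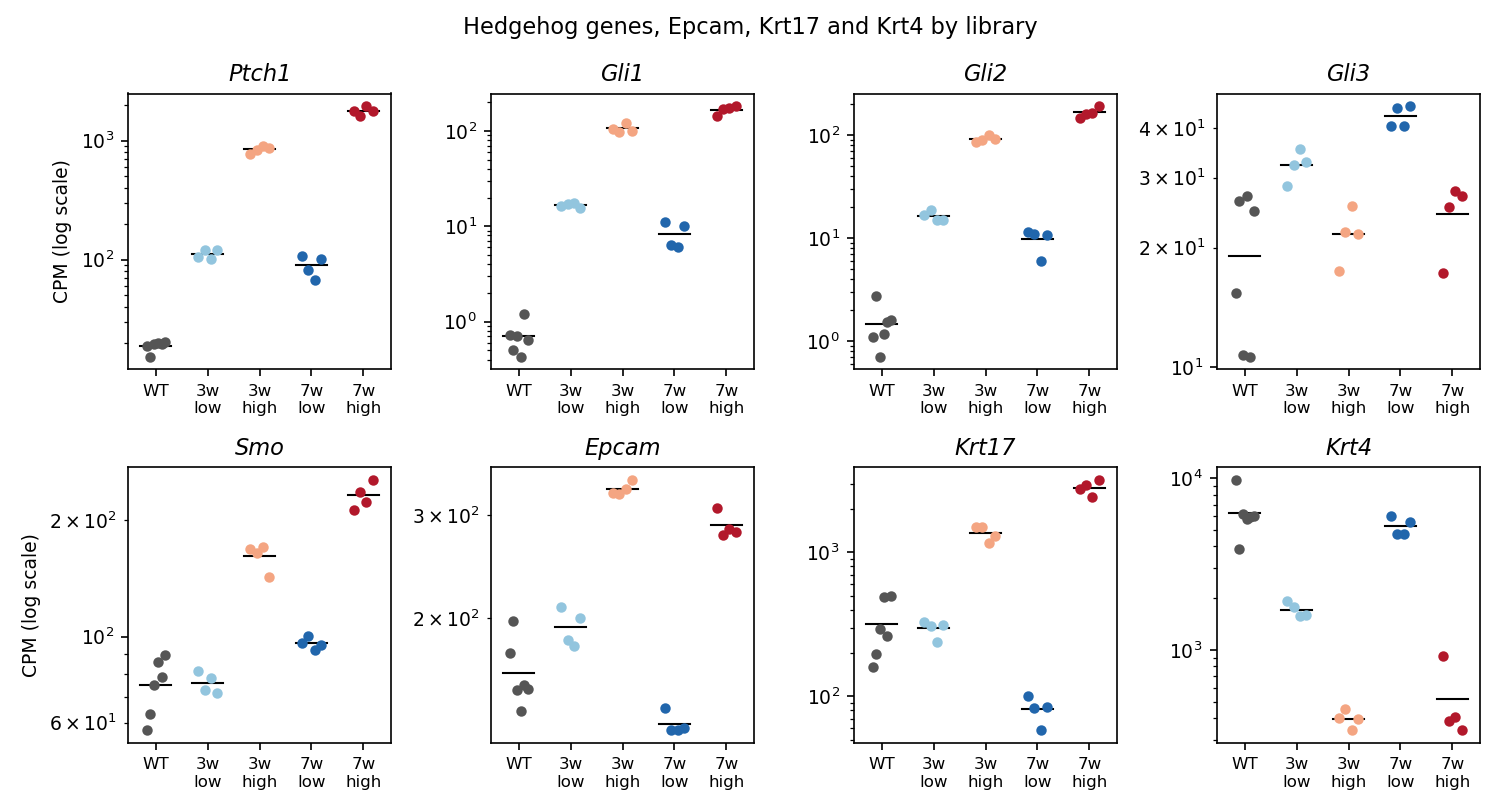
CPM on a log axis in each library (points) with the group mean (line), for 6 WT libraries and 4 libraries in each EpCAM gate at 3 and 7 weeks; each panel has its own axis. Ptch1, Gli1 and Gli2 lie highest in the 7-week EpCAM-high libraries, and the EpCAM-low libraries lie between these and WT; Gli3 is lower in EpCAM-high than in EpCAM-low cells.

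Mean levels of Gli1, Ptch1 and Gli2 in EpCAM-low cells lay above those of WT cells. Gli1 averaged 8.35 CPM in EpCAM-low cells at 7 weeks beside 0.703 ± 0.277 in WT, Ptch1 89.4 beside 18.96 ± 1.87, and Gli2 9.72 beside 1.47 ± 0.698. These levels are set side by side without a test, since the libraries belong to separate experiments.

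Several keratins were far apart between the gates, and others were not. Krt17, a keratin of hair follicles and of wounded or fast-growing epidermis, was at 2732, 2912, 2429 and 3203 CPM in the EpCAM-high libraries and 100.2, 82.97, 58.04 and 84.3 CPM in the EpCAM-low libraries. With a log2 fold of 5.07 ± 0.14 (adjusted p = 6.86e-18) it had the third smallest p of all genes that rose. Its relatives Krt6a (2373 ± 210.0 against 643 ± 126 CPM, log2 fold 1.84 ± 0.11) and Krt6b (743 ± 52.4 against 192 ± 30.7 CPM, 1.91 ± 0.12) also rose, and as near-identical copies they may share reads. Krt16, usually made with them, was lower (163 ± 21.4 against 284 ± 43.6 CPM, -0.85 ± 0.11). Krt4, the keratin of the upper oesophageal layers, was at 926, 387, 406 and 341 CPM in the EpCAM-high libraries and 6001, 4712, 4703 and 5552 CPM in the EpCAM-low libraries. Library 1 of the EpCAM-high gate held the most Krt4 of its group, and even it lay far below the lowest EpCAM-low library (log2 fold -3.40 ± 0.21, adjusted p = 4.49e-12, and -3.84 without that library). The partner of Krt4, Krt13, was at 4134, 3265, 3176 and 3748 CPM in the EpCAM-high libraries and 7695, 7159, 7186 and 7534 CPM in the EpCAM-low libraries, a smaller difference in the same direction (log2 fold -1.09 ± 0.08, adjusted p = 3.62e-11). Krt10, the keratin of the upper layers of skin, was at 253, 179, 175 and 187 CPM in the EpCAM-high libraries and 20.5, 24.1, 22.1 and 24.999 CPM in the EpCAM-low libraries. It rose 8.41-fold (log2 fold 3.07 ± 0.14, adjusted p = 2.25e-14), and its partner Krt1 rose too, from near the limit of detection (2.44 against 0.587 CPM, 2.04 ± 0.45). Krt80 rose by 3.07 ± 0.20, and Krt32, a hair keratin, fell by 2.92 ± 0.12 (19.01 ± 4.24 against 138 ± 19.2 CPM). Of the basal keratins, Krt14 and Krt15 fell by 0.80 ± 0.08 and 0.80 ± 0.08, and Krt5 did not pass (2964 ± 381 against 2888 ± 177 CPM, log2 fold -0.01, adjusted p = 0.948).

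Keratins of columnar epithelia were scarce at 7 weeks in both gates. Krt8 was at 0.455, 0.138, 0.294 and 0.9596 CPM in the EpCAM-high libraries and 1.07, 0.198, 0.306 and 0.3496 CPM in the EpCAM-low libraries, and Krt7 at 0.758, 0.276, 0.147 and 0.9596 CPM in the EpCAM-high libraries and 0.536, 0.198, 0 and 0.175 CPM in the EpCAM-low libraries. Both were under the level for testing, and the libraries of the 2 gates overlapped. Krt18, the partner of Krt8, was higher in EpCAM-low cells (0.837 ± 0.558 against 2.01 ± 0.888 CPM, log2 fold -1.35 ± 0.43, adjusted p = 0.0147), but the libraries overlapped, and the call was lost without EpCAM-high library 3 (-1.09) or 4 (-1.15) or EpCAM-low library 1 (-1.06). Krt19 did not pass (2.95 ± 0.792 against 3.02 ± 1.37 CPM). Krt20, a keratin of differentiated gut and bladder cells, was the exception, at 33.03, 39.8, 24.2 and 29.3 CPM in the EpCAM-high libraries and 5.36, 5.14, 1.84 and 5.77 CPM in the EpCAM-low libraries and with no overlap (log2 fold 2.76 ± 0.22, adjusted p = 3.06e-10). The factors Cdx1, Cdx2, Foxa2 and Hnf4g had no count in any of the 8 libraries. Of 16 stomach genes only 2 could be tested, and neither passed. Of 18 intestinal genes only 6 could be tested. Among these 2 rose and 1 fell, beside 19.9% and 21.7% of all genes. The risen ones were Anpep, an aminopeptidase (9.72 ± 1.69 against 1.63 ± 0.757 CPM), and Fcgbp, a mucus protein (14.8 ± 3.76 against 4.55 ± 1.097 CPM).

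**Figure D2:**
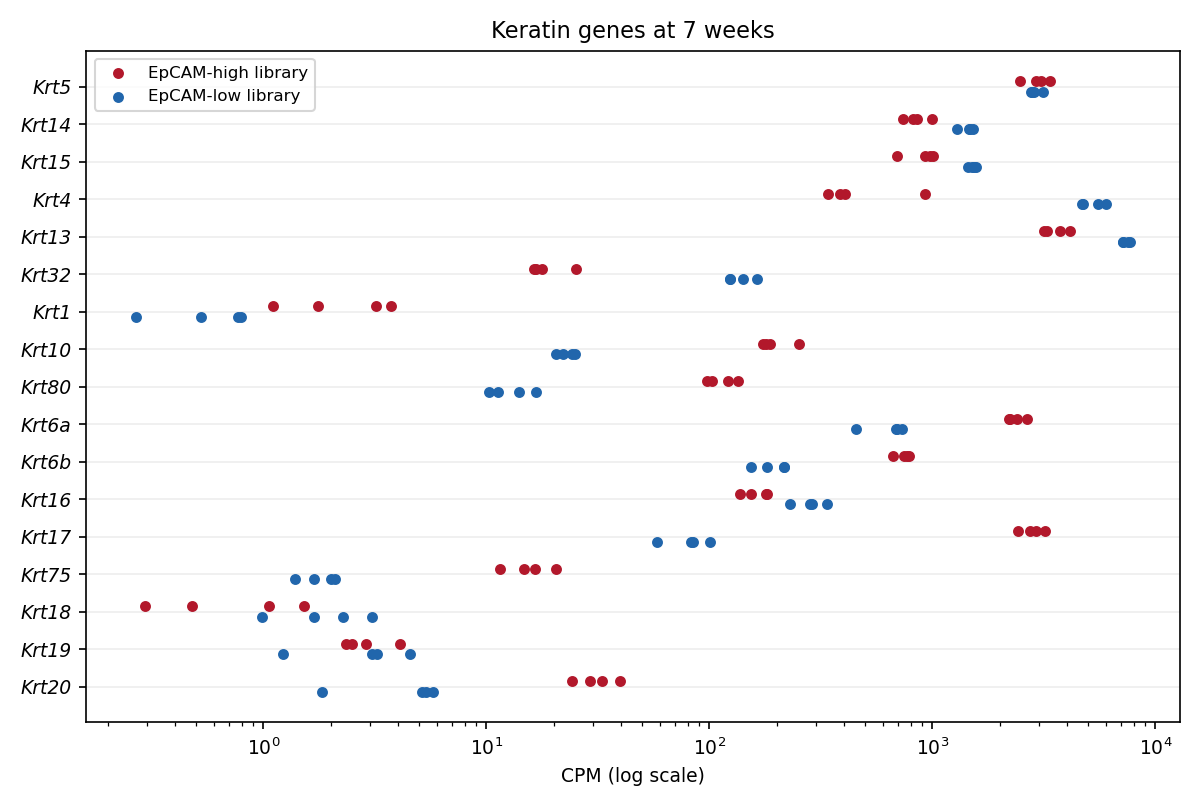
CPM on a log axis of 17 keratin genes in the 4 EpCAM-high (red) and 4 EpCAM-low (blue) libraries at 7 weeks, 1 point a library. Krt17, Krt10, Krt80, Krt75 and Krt20 lie higher in EpCAM-high cells, Krt4, Krt13, Krt32, Krt14, Krt15 and Krt16 lower, and Krt5, Krt18 and Krt19 overlap.

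Other genes of squamous differentiation moved in both directions. Of 45 tested, 12 rose (19 with the replicate block) and 16 fell, with a median of 0.11. Calm4, a calmodulin-like gene of differentiating keratinocytes, rose (398 ± 47.3 against 32.3 ± 7.62 CPM, 3.58 ± 0.19), as did Alox12e, an epidermal lipoxygenase (12.6 ± 3.03 against 0.559 ± 0.4804 CPM, 4.50 ± 0.32) and Sprr1a (1.13 ± 0.15), of the cornified envelope. Mt4, a metallothionein of stratified epithelia, was at 33.2, 17.4, 15.6 and 15.6 CPM in the EpCAM-high libraries and 188, 181, 168 and 184 CPM in the EpCAM-low libraries, a 9.18-fold lower level (log2 fold -3.20 ± 0.16, adjusted p = 4.14e-14). Sprr1b (-1.31 ± 0.20) and the crosslinking enzyme gene Tgm3 (781 ± 108 against 1466 ± 119 CPM, -0.95 ± 0.11) fell. Of 8 transcription factors in that list none rose and 4 fell. Maf, a factor of keratinocyte differentiation, was at 10.2, 4.96, 3.52 and 3.72 CPM in the EpCAM-high libraries and 64.4, 59.1, 63.6 and 67.7 CPM in the EpCAM-low libraries. Again the highest EpCAM-high library was library 1, and the gates did not overlap (log2 fold -3.58 ± 0.19, adjusted p = 2.4e-13, and -4.01 without that library). Ovol1, a repressor at the exit from the basal layer, fell by 1.56 ± 0.08, Zfp750, an activator of late differentiation, by 0.86 ± 0.08 and Grhl1 by 0.37 ± 0.10.

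Transcription factors of the basal and foregut lineage moved in both directions. Trp63, the master factor of squamous basal cells, rose by 0.47 ± 0.08 (983 ± 90.5 against 688 ± 29.3 CPM) and Sox2, the foregut factor, by 0.72 ± 0.11 (127 ± 21.3 against 74.7 ± 13.9 CPM). Pitx1 (-0.69 ± 0.12), Tfap2c (-1.46 ± 0.15) and Pax9 (-0.55 ± 0.07) fell. Sox9, a factor of columnar and progenitor cells, was at 85.3, 62.7, 98.4 and 98.4 CPM in the EpCAM-high libraries and 39.4, 34.8, 39.2 and 40.7 CPM in the EpCAM-low libraries. The groups did not overlap, and the difference was 2.17-fold (log2 fold 1.12 ± 0.14, adjusted p = 5.39e-07). Sox4, common in embryonic and tumour cells, was at 183, 188, 230.5 and 197 CPM in the EpCAM-high libraries and 44.6, 47.2, 41.96 and 43.4 CPM in the EpCAM-low libraries, with no overlap (log2 fold 2.13 ± 0.09, adjusted p = 4.83e-15). Barx2, a homeobox gene, was at 46.7, 42.2, 34.2 and 46.2 CPM in the EpCAM-high libraries and 241, 216, 253 and 234 CPM in the EpCAM-low libraries, and fell 5.76-fold (log2 fold -2.53 ± 0.09, adjusted p = 3.47e-16). Of 14 tested embryonic and oncofetal genes 3 rose and 3 fell, shares close to the 19.9% and 21.7% of all genes, and the imprinted RNA H19 was among those that fell (35.7 ± 7.92 against 230.1 ± 30.6 CPM, -2.73 ± 0.15). Lin28a, Lin28b and Hmga2 averaged at most 0.0967 CPM in either gate.

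Genes of tight junctions were mostly higher in EpCAM-high cells. In the list of simple epithelial genes, which also holds keratins, adhesion genes and secreted or apical genes, 16 of 25 rose and 2 fell. Epcam, the gene of the protein used for the sort, is among the 16. Of 7 genes listed as junction scaffolds 4 rose and none fell. Each of the 6 tested claudins, the strand-forming proteins of tight junctions, rose, with a median of 1.32. Cldn1 was at 453, 425, 584 and 654 CPM in the EpCAM-high libraries and 50.1, 37.3, 50.5 and 67.8 CPM in the EpCAM-low libraries. Its 9.95-fold difference (log2 fold 3.31 ± 0.15, adjusted p = 6.81e-15) was larger than the spread within either gate. Cldn8 (41.8 ± 5.47 against 12.8 ± 1.12 CPM, 1.67 ± 0.14) and Cldn4 (106 ± 20.2 against 61.3 ± 14.2 CPM, 0.74 ± 0.17) rose less. Ocln, another tight junction membrane protein, rose by 1.93 ± 0.16 (104 ± 14.5 against 26.1 ± 7.01 CPM), Marveld3 by 1.52 ± 0.15 and the scaffold gene Cgn by 0.92 ± 0.10. Tjp1 rose by 0.23 ± 0.08, but not when EpCAM-high library 3 (0.17) or EpCAM-low library 2 (0.17) was left out. Cdh1, the E-cadherin of all epithelia, did not pass (697 ± 47.5 against 656 ± 54.8 CPM, log2 fold 0.04, adjusted p = 0.687). Upk1b, a membrane protein of the bladder surface, was at 4.24, 6.89, 8.81 and 10.3 CPM in the EpCAM-high libraries and 0, 0.198, 0.153 and 0 CPM in the EpCAM-low libraries, so its mean in EpCAM-low cells lay below the limit of 3 counts and no fold is given (adjusted p = 1.27e-08).

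**Figure D3:**
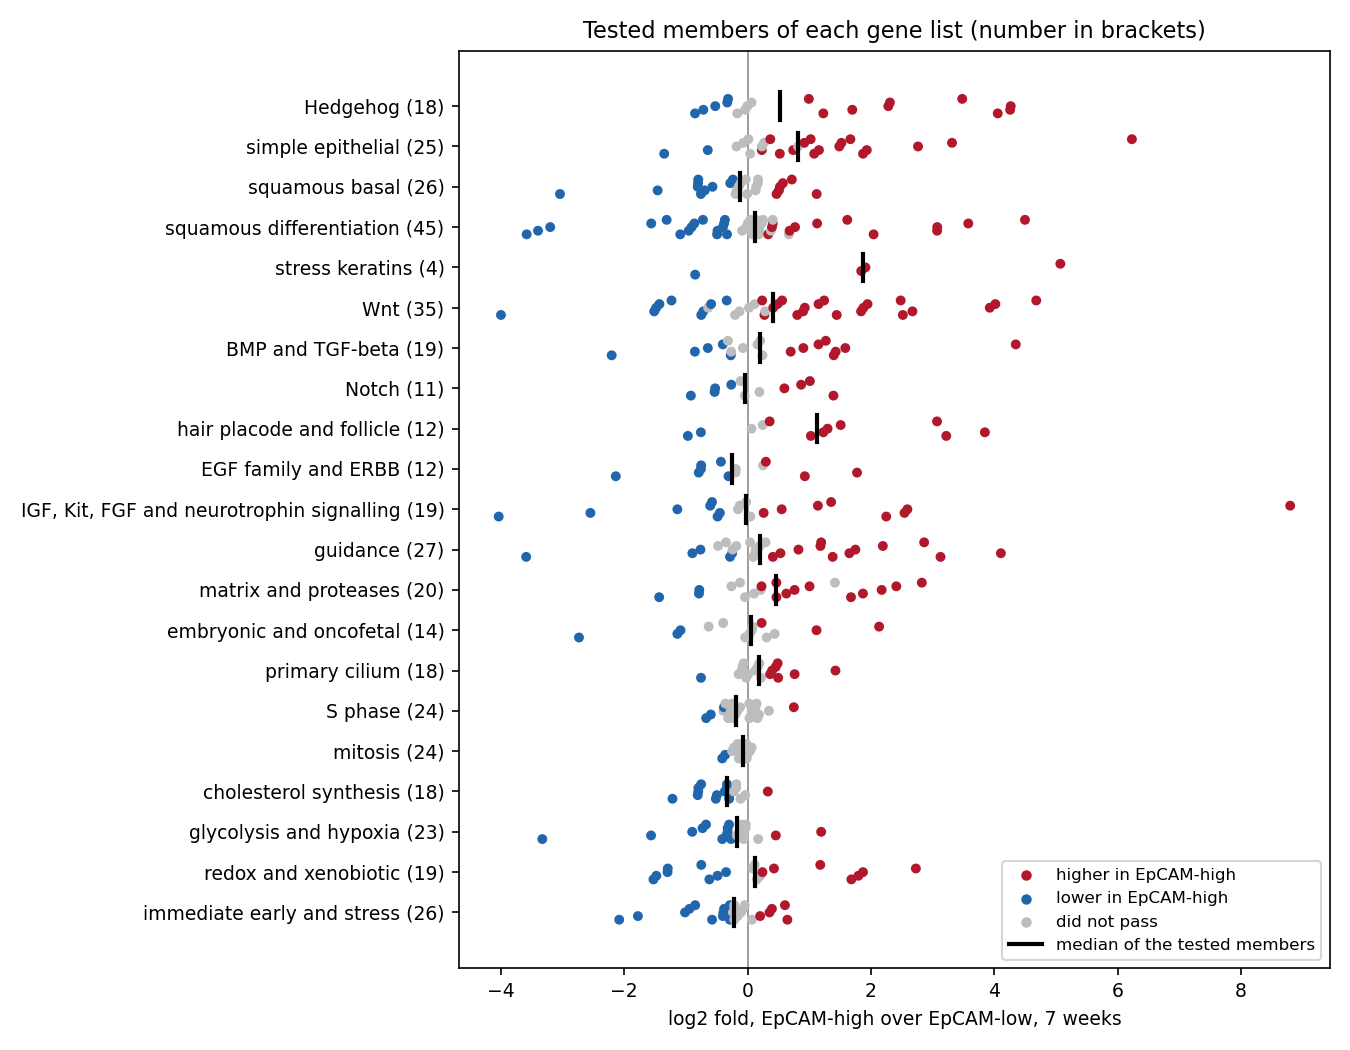
Log2 folds at 7 weeks of the tested members of 21 gene lists, 1 point a gene (red higher, blue lower, grey did not pass) with the median as a black bar. Hedgehog, simple epithelial, Wnt, hair follicle and matrix genes reach far to the right, as do stress keratin, squamous differentiation, BMP and guidance genes. Wnt, IGF, guidance and squamous differentiation genes also reach far to the left, and cell cycle genes stay near 0. The points furthest right are Kit and Upk1b, whose fitted folds depend on the prior count since EpCAM-low cells were below the limit of 3 counts.

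Wnt genes were more often higher than lower in EpCAM-high cells. Wnt proteins act through Frizzled receptors on beta-catenin, and Lgr5 and Lgr6, receptors for R-spondins, mark stem cells of gut and hair. Of 35 tested genes in the Wnt list 20 rose and 9 fell, with a median of 0.42. Lgr5 was at 119, 129.7, 233 and 167 CPM in the EpCAM-high libraries and 8.57, 9.48, 9.34 and 14.3 CPM in the EpCAM-low libraries. The EpCAM-high libraries were spread out, with library 3 highest, and the lowest lay above the highest EpCAM-low library (log2 fold 3.93 ± 0.26, adjusted p = 1.32e-11). Lgr6 rose by 2.52 ± 0.25 (24.6 ± 6.87 against 4.01 ± 1.29 CPM), while Lgr4, found in many epithelia, rose by 0.24 ± 0.07 with overlapping libraries. Of 10 tested ligand genes 5 rose and 3 fell. Wnt7b was at 129, 117, 117 and 125 CPM in the EpCAM-high libraries and 29.6, 23.7, 17.5 and 13.3 CPM in the EpCAM-low libraries (log2 fold 2.48 ± 0.15, adjusted p = 2.09e-12). Wnt9a rose by 4.02 ± 0.23, Wnt5b by 2.67 ± 0.25 and Wnt5a by 1.88 ± 0.16, whereas Wnt10a fell by 0.75 ± 0.17 with overlapping libraries. Wnt16 was at 0.455, 0.689, 0.147 and 0.2399 CPM in the EpCAM-high libraries and 7.502, 5.53, 4.59 and 6.82 CPM in the EpCAM-low libraries, every EpCAM-high library being below 1 CPM (log2 fold -4.00 ± 0.41, adjusted p = 2.95e-08). Receptor genes Fzd1 (118 ± 7.62 against 31.95 ± 2.03 CPM, 1.84 ± 0.08) and Fzd3 (57.9 ± 5.07 against 14.6 ± 2.201 CPM, 1.94 ± 0.11) rose, and Fzd6 fell by 0.59 ± 0.09. Of 10 tested inhibitor and feedback genes 5 rose and 4 fell. The feedback genes Axin2 and Znrf3 rose moderately, by 1.45 ± 0.31 (6.76 ± 0.969 against 2.39 ± 0.517 CPM) and 1.15 ± 0.07 (137 ± 7.01 against 59.8 ± 4.23 CPM). Wif1, a secreted Wnt inhibitor, rose by 4.68 ± 0.35 (20.8 ± 5.08 against 0.776 ± 0.161 CPM), while the inhibitors Sfrp1 (28.3 ± 3.45 against 64.4 ± 14.6 CPM, -1.23 ± 0.13), Apcdd1 (-1.51 ± 0.14) and Dkk3 (-1.48 ± 0.23) fell. Lef1 was below the level for testing in both gates (0.596 against 0.298 CPM).

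Signals that accompany Hedgehog and Wnt in hair placodes and follicles also differed. Of 12 tested hair genes 8 rose and 2 fell, with a median of 1.13. Pthlh, a secreted hormone-like factor, was at 45.6, 39.7, 57.8 and 45.7 CPM in the EpCAM-high libraries and 4.82, 3.36, 2.45 and 1.75 CPM in the EpCAM-low libraries (log2 fold 3.85 ± 0.19, adjusted p = 6.77e-14). Foxc1 (33.8 ± 5.18 against 3.52 ± 0.403 CPM, 3.22 ± 0.19), Cux1 (232 ± 22.2 against 96.2 ± 5.23 CPM, 1.23 ± 0.08) and Nfatc1 (1.03 ± 0.09), transcription factors active in follicles, rose. Krt75, a follicle keratin, rose by 3.07 ± 0.22 (15.8 ± 3.77 against 1.79 ± 0.326 CPM). Eda and Edar, ligand and receptor of early placodes, fell by 0.97 ± 0.29 and 0.76 ± 0.25 with overlapping libraries, and 16 of the 28 listed genes, among them Lhx2 and Hoxc13, were below the level for testing. In the BMP and TGF-beta list 8 of 19 rose and 5 fell. Bmp6 was at 43.5, 44.1, 54.9 and 58.3 CPM in the EpCAM-high libraries and 2.55, 1.78, 1.68 and 3.496 CPM in the EpCAM-low libraries, a 20.4-fold difference (log2 fold 4.35 ± 0.19, adjusted p = 8.06e-15). Bmp7 rose by 1.43 ± 0.11, and so did the BMP target genes Id1 (46.4 ± 7.26 against 14.8 ± 4.04 CPM, 1.58 ± 0.14) and Id3 (56.3 ± 7.42 against 20.3 ± 7.74 CPM, 1.40 ± 0.16). Id2 (-0.64 ± 0.10), the ligand gene Tgfb2 (-2.20 ± 0.26) and, with overlapping libraries, the antagonist Fst (-0.85 ± 0.23) fell. Of 11 Notch genes 4 rose and 4 fell, beside 41.6% passing over all genes. Hes1, a target, rose by 0.87 ± 0.11 and Notch2, a receptor, by 0.60 ± 0.07, while Notch3 and the ligand gene Dll1 fell by 0.53 ± 0.09 and 0.92 ± 0.14.

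Growth factor genes changed in both directions. In the EGF list 3 of 12 rose and 6 fell. The receptor gene Egfr fell by 0.76 ± 0.09 (226 ± 18.6 against 369.9 ± 42.2 CPM), and so did Hbegf by 0.75 ± 0.10 and Nrg1 by 0.79 ± 0.15, with overlapping libraries for Nrg1. Areg rose by 0.93 ± 0.12 (183 ± 29.01 against 93.3 ± 15.6 CPM). Kit, the receptor for stem cell factor, was at 6.06, 6.48, 12.9 and 7.797 CPM in the EpCAM-high libraries and had no count in any EpCAM-low library. Against the limit of 3 counts over the EpCAM-low gate it was at least 68.3-fold higher. The gene of its ligand, Kitl, fell by 0.45 ± 0.08 (81.3 ± 8.23 against 108 ± 8.71 CPM). Bdnf and Ntf3, neurotrophins, rose by 2.54 ± 0.18 and 2.25 ± 0.25, and Ngfr, a receptor they share, by 1.12 ± 0.12 (66.8 ± 8.504 against 29.8 ± 2.71 CPM). Binding proteins of insulin-like growth factors went opposite ways. Igfbp5 was at 297, 273, 455 and 442 CPM in the EpCAM-high libraries and 80.6, 44.4, 41.7 and 68.9 CPM in the EpCAM-low libraries (log2 fold 2.59 ± 0.18, adjusted p = 3.18e-11), and Igfbp2 at 25.9, 29.9, 15.4 and 29.03 CPM in the EpCAM-high libraries and 157, 173, 122 and 120.3 CPM in the EpCAM-low libraries (log2 fold -2.55 ± 0.13, adjusted p = 1.54e-13). Neither gene overlapped between the gates. Pappa, a protease that cleaves such binding proteins, was at 1.97, 1.79, 4.404 and 0.8397 CPM in the EpCAM-high libraries and 20.2, 38.9, 53.6 and 27.4 CPM in the EpCAM-low libraries. The EpCAM-low libraries ranged widely and all lay above the EpCAM-high ones (log2 fold -4.03 ± 0.31, adjusted p = 1.74e-10).

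Of 27 guidance genes 12 were higher in EpCAM-high cells and 5 lower (13 and 8 with the replicate block), and of 20 matrix and protease genes 11 were higher and 3 lower. Eph receptors sort cells into compartments by touching ephrins on neighbouring cells. Epha7 was at 194, 229, 224 and 218 CPM in the EpCAM-high libraries and 15.1, 12.6, 7.198 and 13.6 CPM in the EpCAM-low libraries, and Epha4 at 215, 222, 227 and 244 CPM in the EpCAM-high libraries and 32.95, 25.1, 29.4 and 33.04 CPM in the EpCAM-low libraries. Neither gene overlapped between the gates, and both are among those with the smallest p (log2 folds 4.11 ± 0.12 and 2.86 ± 0.10, adjusted p = 9.99e-18 and 6.69e-17). Ephb2, Ephb4 and the ephrin gene Efnb2 rose by 1.65 ± 0.09, 1.75 ± 0.10 and 1.19 ± 0.09. Sema3d, a secreted repellent, was at 4.55, 5.099, 6.46 and 4.68 CPM in the EpCAM-high libraries and 59.2, 61.8, 61.9 and 59.6 CPM in the EpCAM-low libraries, with very little spread in the EpCAM-low gate (log2 fold -3.59 ± 0.13, adjusted p = 3.82e-16). Slit3, the gene of another secreted cue, rose by 3.13 ± 0.22 (22.2 ± 3.23 against 2.43 ± 0.859 CPM). Of 10 matrix genes 7 rose and 1 fell. Tnc, tenascin C of growing and wounded tissue, was at 347, 537, 487 and 516 CPM in the EpCAM-high libraries and 63.2, 82.97, 44.6 and 69.2 CPM in the EpCAM-low libraries (log2 fold 2.83 ± 0.14, adjusted p = 4.42e-14). The basement membrane genes Lama5 (436 ± 41.2 against 211 ± 15.9 CPM, 1.00 ± 0.07), Lamb1 (1.68 ± 0.11) and Col4a1 (2.41 ± 0.21) rose with it, as did the protease gene Mmp2 (72.6 ± 9.02 against 19.2 ± 1.79 CPM, 1.87 ± 0.12). Fibroblasts make many of these proteins too. Of 10 tested fibroblast markers 1 (Lum, 2.26 against 0.989 CPM, overlapping libraries) rose and 9 did not pass. Their median log2 fold was 0.51 beside -0.02 over all genes, with a range from -0.09 for Dcn, the most abundant of them (20.7 ± 2.01 against 21.3 ± 4.05 CPM), to 1.23 for Lum. Col1a1 missed the threshold (4.69 ± 1.45 against 2.84 ± 0.813 CPM, log2 fold 0.73, adjusted p = 0.0588) and passed in 8 of 17 alternatives, the replicate block among them. The part of fibroblasts in the matrix genes was not tested. Itga2, a collagen receptor subunit, fell by 3.04 ± 0.27 (4.67 ± 1.52 against 36.96 ± 14.1 CPM), and Itgb1, its partner, rose by 0.53 ± 0.08.

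**Figure D4:**
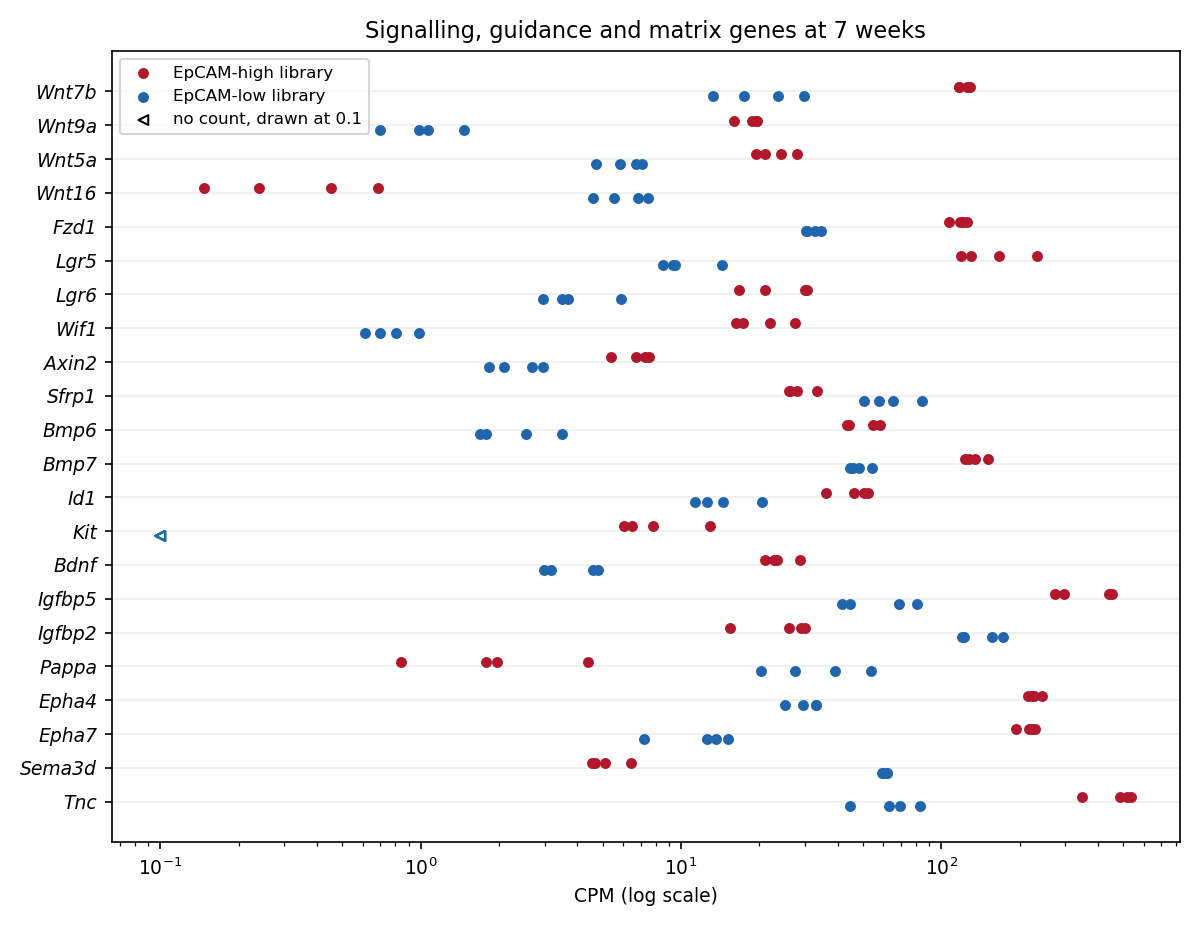
CPM on a log axis of 22 signalling, guidance and matrix genes in the 4 EpCAM-high (red) and 4 EpCAM-low (blue) libraries at 7 weeks, 1 point a library, with the 4 Kit values without a count drawn as open triangles. The 2 sets of points are apart for every gene shown; Wnt16, Sfrp1, Igfbp2, Pappa and Sema3d are the ones higher in EpCAM-low cells.

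Few cell cycle genes passed. Of 24 S-phase genes 1 rose and 3 fell, and of 24 mitosis genes none rose and 2 fell, shares below the 41.6% of all genes. With the replicate block 2 S-phase genes rose and 7 fell, and 5 mitosis genes fell. Mki67, a proliferation marker, was lower with overlapping libraries (628 ± 107 against 808 ± 100.4 CPM, log2 fold -0.41 ± 0.12, adjusted p = 0.0063), and Top2a and Cdk1 did not pass (log2 folds -0.04 and 0.07). The cyclin genes Ccnd1 and Ccnd2, which act in G1, fell by 0.65 ± 0.10 and 1.03 ± 0.12. Of 18 genes of cholesterol synthesis 12 were lower and 1 higher, by small amounts (median -0.33); Fdft1 fell by 0.75 ± 0.11. With library totals in place of TMM, 10 were lower. Of 23 glycolysis and hypoxia genes 11 were lower and 2 higher. Slc2a1, the glucose transporter, fell by 0.73 ± 0.09 and Hk1 by 0.67 ± 0.06. Car12, a carbonic anhydrase, was at 55.3, 54.3, 53.9 and 47.7 CPM in the EpCAM-high libraries and 450.5, 451, 616 and 528 CPM in the EpCAM-low libraries (log2 fold -3.33 ± 0.12, adjusted p = 4.21e-16), and Epas1, which encodes the hypoxia factor HIF-2 alpha, at 37.3, 29.8, 32.002 and 29.1 CPM in the EpCAM-high libraries and 160.1, 174, 170.5 and 166 CPM in the EpCAM-low libraries (log2 fold -2.43 ± 0.10, adjusted p = 1.42e-15). Both were well separated, whereas Gapdh did not pass (-0.06). Of 19 redox and xenobiotic genes 7 rose and 8 fell. Gstm1, a glutathione transferase, fell by 1.30 ± 0.08 (257 ± 33.4 against 612 ± 25.8 CPM), Gstp1, another, by 1.53 ± 0.08 and Gclm, of glutathione synthesis, by 1.48 ± 0.09. Among those that rose were Adh7, a retinol-oxidising dehydrogenase of the upper gut (1799 ± 175 against 771 ± 22.4 CPM, 1.18 ± 0.08), and Cbr2, a carbonyl reductase (419 ± 105 against 117 ± 18.2 CPM, 1.80 ± 0.15). Among chemokine genes Cxcl14 rose (11.9 ± 1.81 against 0.928 ± 0.437 CPM, 3.68 ± 0.26), and Cxcl1 (11.8 ± 4.19 against 41.5 ± 9.38 CPM, -1.89 ± 0.21) and Cxcl10 (-1.31 ± 0.24) fell. H2-Ab1, an MHC class II gene, rose by 1.03 ± 0.18 (13.9 ± 3.38 against 6.66 ± 1.397 CPM), beside H2-Aa and Cd74 at 0.184 and 1.097 CPM in EpCAM-high cells. Of 26 immediate early and stress genes 5 were higher and 12 lower. Fos, an immediate early factor, was at 1687 ± 193 against 1995 ± 303 CPM (-0.29 ± 0.10, overlapping libraries).

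Genes of hemidesmosomes, desmosomes and the cornified envelope changed in both directions. Of 8 hemidesmosome genes, which anchor basal cells to the basement membrane, 2 rose, among them the laminin gene Lama3 (300.2 ± 43.3 against 196 ± 20.3 CPM, 0.57 ± 0.11), and 1 fell, Col17a1 (-0.28 ± 0.09), while Itgb4 did not pass (-0.11). With the replicate block 4 rose and 2 fell. Of 8 desmosome genes 2 rose and 2 fell, among them Dsc2 (1396 ± 152 against 1020.2 ± 164 CPM, 0.41 ± 0.10) and Pkp1 (1165 ± 111 against 1469 ± 112 CPM, -0.38 ± 0.08), while Dsp did not pass (0.14). With the replicate block 4 rose, and Dsp passed (0.14, adjusted p = 0.023). Of 12 envelope genes 4 rose (8 with the replicate block) and 3 fell. Evpl and Ppl, which encode the plakins envoplakin and periplakin, rose by 0.40 ± 0.09 and 0.33 ± 0.10. Krtdap (371 ± 51.4 against 453 ± 32.4 CPM, -0.33 ± 0.09), Dmkn (-0.49 ± 0.11) and Lypd3 (-0.40 ± 0.12), products of differentiating keratinocytes, fell. Libraries of the gates overlapped for Col17a1, Dsc2, Evpl, Ppl, Krtdap and Lypd3. Cd44, a hyaluronan receptor, was lower (1239.8 ± 76.6 against 1781 ± 147 CPM, -0.57 ± 0.08). Among endoderm factors, of which 4 of 16 could be tested, 2 fell and none rose, and Gata6 was the one with the larger fold (0.3101 ± 0.365 against 1.36 ± 0.332 CPM, -2.09 ± 0.50). Of 9 interferon genes 3 fell and none rose (1 rose when library totals replaced TMM or with the replicate block), among them Usp18 (4.48 ± 0.749 against 6.93 ± 0.80002 CPM, -0.67 ± 0.18) and Ifi35 (-0.62 ± 0.14). Of 5 genes of the integrated stress response 4 fell, with Asns, the asparagine synthetase, at 38.9 ± 5.32 against 68.1 ± 5.09 CPM (-0.85 ± 0.11). Of 6 receptors and ligands of the neurotrophin and Kit group 3 rose and 2 fell, and of 5 FGF genes 1 rose and 3 fell, among them the receptor gene Fgfr3 (99.8 ± 13.2 against 147 ± 15.6 CPM, -0.61 ± 0.09). Tcf7l2, a nuclear partner of beta-catenin, rose (136 ± 7.55 against 75.4 ± 2.83 CPM, 0.81 ± 0.07), and Wfdc2, a secreted epithelial protein, fell (9.27 ± 0.668 against 42.5 ± 4.94 CPM, -2.24 ± 0.10).

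Beyond the genes above, those with the smallest p and the largest folds had varied functions. Ces1f, a carboxylesterase (ENSMUSG00000031725, GRCm38 chromosome 8, 93256236 to 93279747), was at 418, 404, 422 and 455 CPM in the EpCAM-high libraries and 15.3, 12.8, 9.495 and 17.3 CPM in the EpCAM-low libraries, and had the smallest p of all genes (log2 fold 4.91 ± 0.12, adjusted p = 4.92e-19). Fndc1, a fibronectin-like protein, rose by 3.25 ± 0.10 (733 ± 82.9 against 74.7 ± 5.72 CPM), Pygb, a glycogen phosphorylase, by 3.30 ± 0.10 (482 ± 56.8 against 47.6 ± 6.61 CPM), Fbln2, a matrix fibulin, by 4.33 ± 0.14 (309 ± 50.97 against 14.8 ± 2.53 CPM), and Oit1 by 4.77 ± 0.15 (132 ± 14.4 against 4.69 ± 1.66 CPM). Srgap1, which acts downstream of Slit, was at 65.3, 66.01, 94.1 and 82.05 CPM in the EpCAM-high libraries and 1.47, 1.19, 0.919 and 1.399 CPM in the EpCAM-low libraries, a 58.9-fold difference (log2 fold 5.88 ± 0.19, adjusted p = 3.35e-17). Slc6a11, a transporter of the neurotransmitter GABA, rose by 5.08 ± 0.20 (134 ± 21.95 against 3.898 ± 1.78 CPM). Large folds also belonged to genes almost without counts in EpCAM-low cells: Wdr72 (11.5 ± 1.26 against 0.0494 ± 0.0988 CPM), S100g, a small calcium-binding protein (14.6 ± 3.59 against 0.131 ± 0.0894 CPM), B4galt5, a glycolipid galactosyltransferase (11.2 ± 1.71 against 0.175 ± 0.144 CPM), Cdh11, a cadherin of mesenchyme (11.7 ± 1.74 against 0.242 ± 0.0859 CPM), and Chrm3, a muscarinic receptor (9.92 ± 4.98 against 0.286 ± 0.166 CPM). In the other direction Gpnmb, a transmembrane glycoprotein (ENSMUSG00000029816, chromosome 6, 49036546 to 49070929), was at 20.8, 18.3, 11.5 and 13.7 CPM in the EpCAM-high libraries and 218, 266, 254 and 282 CPM in the EpCAM-low libraries, and had the smallest p of the genes that fell (log2 fold -4.04 ± 0.13, adjusted p = 3.83e-17). Dynap fell by 4.06 ± 0.15 (14.1 ± 4.26 against 225 ± 35.1 CPM), Them5, a mitochondrial thioesterase, by 2.65 ± 0.10 (47.6 ± 6.402 against 289 ± 21.2 CPM), Ptgs1, the constitutive cyclooxygenase, by 3.22 ± 0.13 (5.84 ± 1.41 against 52.3 ± 3.62 CPM), and Ly6a, the stem cell antigen Sca-1, by 2.80 ± 0.12 (12.3 ± 1.92 against 83.2 ± 12.5 CPM). Slc7a8, an amino acid transporter (1.35 ± 0.381 against 31.2 ± 11.8 CPM, -4.55 ± 0.29), and Lypd6 (1.54 ± 0.366 against 29.01 ± 2.74 CPM, -4.28 ± 0.21) had the most negative log2 folds among genes with at least 5 CPM in the higher gate and no overlap. Pde4b, a phosphodiesterase that degrades cyclic AMP (4.31 ± 1.26 against 55.3 ± 4.67 CPM, -3.74 ± 0.18), Plxna2, a semaphorin receptor (57.4 ± 5.49 against 199 ± 12.97 CPM, -1.84 ± 0.08), and Pmp22, a membrane protein best known from myelin (4.93 ± 0.472 against 35.1 ± 3.15 CPM, -2.86 ± 0.12), fell as well. On the same build lie Krt17 (ENSMUSG00000035557, chromosome 11, 100256217 to 100261029), Lgr5 (ENSMUSG00000020140, chromosome 10, 115450311 to 115587780), Cldn1 (ENSMUSG00000022512, chromosome 16, 26356642 to 26371841) and Krt4 (ENSMUSG00000059668, chromosome 15, 101918535 to 101924735).

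The same gate at 3 weeks gave fewer calls, 4087 genes (24.6%: 11.9% higher and 12.7% lower). Of the 3312 genes higher at 7 weeks 48.9% were also higher at 3 weeks, which is 81.6% of those higher at 3 weeks, and of the 3608 lower ones 44.4% were also lower (76.1% of the 3-week set). Among 3239 genes passing at both times 3221 had the same direction, and 2514 of these had the larger fold at 7 weeks. Across all 16621 genes the 2 sets of log2 folds had r = 0.815, a description over genes that are not independent, between libraries that do not overlap. The difference between the weeks, tested as an interaction, passed for 1099 genes (6.61%: 3.89% more positive and 2.72% more negative at 7 weeks), and for 2243 with the replicate block. Of these 783 kept their sign with a larger fold at 7 weeks, 29 kept it with a larger fold at 3 weeks and 287 changed sign. By Xist counts all 8 libraries of 7 weeks looked male, while 6 of the 8 libraries of 3 weeks, 3 in each gate, looked female, so sex and week are partly confounded. Without these 6 libraries 1 per gate remained at 3 weeks, the lone samples being assumed to vary like the others, and 100 differences passed.

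Some Hedgehog genes were among those whose gate difference was larger at 7 weeks. Gli1 differed by 2.62 ± 0.12 at 3 weeks, 1.63 ± 0.18 less than at 7 weeks (adjusted p = 3.51e-06), and the same held for Ptch1 (difference 1.41 ± 0.15) and Gli2 (1.63 ± 0.18). Of the 18 tested Hedgehog genes 7 had a more positive log2 fold at 7 weeks by this test and none a more negative one. Gas1 is among the 7, and its gates lay closer at 7 weeks, with log2 folds of -1.05 at 3 weeks and -0.33 at 7. For Gli1 both gates moved apart, from 106 to 167 CPM in EpCAM-high and from 16.6 to 8.35 in EpCAM-low cells, changes between weeks that are given as means. Krt17 went from 1361 to 2819 CPM and from 297 to 81.4 (difference of the gate 2.93 ± 0.18, adjusted p = 4.08e-10). Cldn1 (1.71 ± 0.19), Lgr5 (1.77 ± 0.38), Sox4 (1.26 ± 0.13), Epha7 (1.31 ± 0.17) and Tnc (1.35 ± 0.18) also had a larger positive fold at 7 weeks. Krt4 (-1.24 ± 0.28), Maf (-1.48 ± 0.28), Mt4 (-1.67 ± 0.22) and Igfbp2 (-1.27 ± 0.18) were further apart in the negative direction. Among genes with at least 5 CPM in the higher gate and no overlap the largest positive differences were those of B4galt5 (3.86 ± 0.62), Cdh11 (3.76 ± 0.78), Inpp5j (3.32 ± 0.61) and Cald1 (3.16 ± 0.28). Cald1, which encodes an actin-binding protein, was lower in EpCAM-high cells at 3 weeks (-0.39 ± 0.14) and higher at 7 (2.77 ± 0.23). Wnt5a had a log2 fold of -0.21 at 3 weeks without passing and 1.88 at 7 (difference 2.09 ± 0.23). Ovol1 had a log2 fold of -0.35 ± 0.08 at 3 weeks and -1.56 ± 0.08 at 7 (difference -1.22 ± 0.11), and Slc7a11, the cystine importer, had -0.29 without passing and -2.43 (difference -2.14 ± 0.24). For Calm4, Krt10, Krt20 and Epas1 the gates were wide apart already at 3 weeks, with log2 folds of 3.66, 2.59, 2.15 and -1.99; of these the difference between the weeks passed for Epas1 only (-0.45 ± 0.13, adjusted p = 0.0431).

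**Figure D5:**
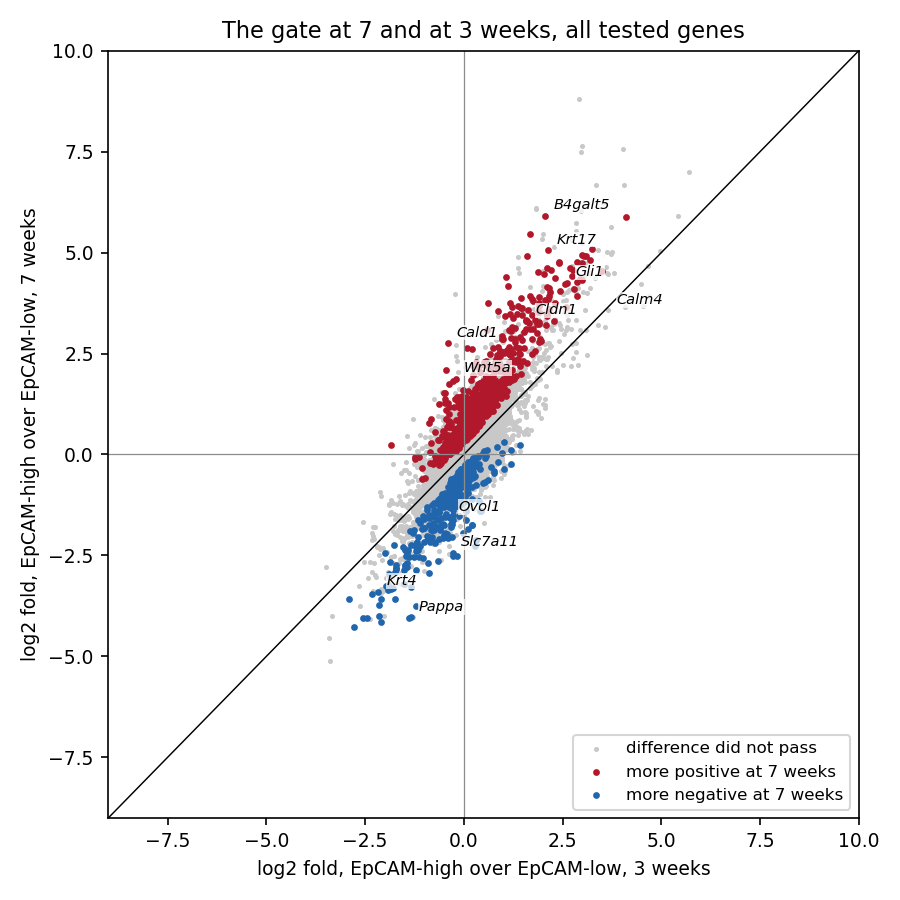
Log2 fold of EpCAM-high over EpCAM-low cells at 7 weeks (vertical) against 3 weeks (horizontal) for 16621 genes, with the diagonal of equal folds; red and blue mark the 647 and 452 genes whose difference between the weeks passed. Red points lie above and blue points below the diagonal, and most of them are further from 0 at 7 weeks.

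Comparisons that share no library with the 7-week gates are set beside them. SmoM2 cells (EpCAM-high) against WT cells (EpCAM-low) differ in gate as well as genotype, and 49.5% of 16224 genes passed there (26.2% higher and 23.3% lower). Of the genes higher at 7 weeks and tested in both, 60.2% were higher in SmoM2 than in WT (47.5% of that set), and of the lower ones 55.1% were lower (52.0%). Gli1, Krt17 and Krt4 had log2 folds of 8.12, 3.17 and -2.23 there. K8YFP+ against K8YFP- cells, both EpCAM-high, gave 19.9% of 15598 genes passing (13.1% higher and 6.83% lower). Of the genes higher at 7 weeks 12.5% were higher in positive cells and 9.18% lower, and of the lower ones 7.44% were lower and 18.7% higher. Krt4 and Krt13, lower in EpCAM-high cells at 7 weeks, had log2 folds of 3.45 and 1.85 in positive over negative cells, and Krt8, which barely registered at 7 weeks, had 4.29.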

How the data were processed

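RNA-seq libraries (NuGEN Ovation Solo, Illumina NovaSeq) were made from sorted oesophageal cells, per the labels' protocols. The authors deposited raw read counts per gene in 1 table. STAR 2.5.3a, HTSeq, edgeR and build GRCm38 (mm10) are named in the submitters' processing notes. No source used here gives the strand setting or the annotation release, so genes overlapping on opposite strands may share reads. Counts were fitted here with edgeR 4.0.16 (R 4.3.3): TMM scaling, filterByExpr (minimum count 10, total 15), quasi-likelihood tests over the 16 libraries of the 2 gates at 3 and 7 weeks, which share 1 estimate of spread, without a replicate block, and Benjamini-Hochberg adjustment over all tested genes (threshold 0.05). CPM are counts over the library total, with means ± SD of 4 libraries (6 for WT); log2 folds carry standard errors derived from the F statistic. SmoM2 against WT and K8YFP+ against K8YFP- were fitted on their own libraries. Positions are those of GENCODE M21 on GRCm38. No 2 of the 8 libraries of 7 weeks were duplicates, and the other libraries were not checked in this way. Among the WT libraries 2 pairs may be repeats, which would narrow the spread in the comparison of SmoM2 with WT. Alternatives were RLE factors, library totals, no filter, DESeq2 1.42.0, a replicate block, other sets of libraries and single libraries left out.

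The members and gene lists were chosen with earlier results of these data known. Genes were named by a rule: a set of anchor genes, in each list the 3 smallest p and any gene at 100 CPM or more, the 12 largest folds and 12 smallest p in each direction among genes whose log2 fold was 1 or more in size, with 5 CPM or more in the higher gate and no overlap, and the 6 largest differences between the weeks in each direction. Named outside it, after their values were seen, were Alox12e, Apcdd1, Axin2, Boc, Cdk1, Cdon, Cgn, Col4a1, Dcn, Disp1, Dkk3, Eda, Edar, Ephb4, Fst, Gas1, Gpr161, Grhl1, Id2, Id3, Kif7, Krt75, Lamb1, Marveld3, Nfatc1, Ntf3, Sfrp1, Slit3, Sprr1b, Stk36, Sufu, Tgfb2, Wnt10a, Wnt5a, Wnt5b and the genes given as too low to test. Some genes that the rule names are not reported here.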

Additional observations from a re-analysis of the deposited data

Results flagged for a closer look

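In 20 of 388 sets of 4 libraries, 2 for each of 194 tested genes named in the report, 1 library stood apart from the other 3 by more than the 95% limit of Dixon's test. Chance gives such a gap in about 1 set of 20. EpCAM-high library 1 was highest for Krt10 (253 CPM), Krt32 (25.3 CPM), Krt4 (926 CPM), Mt4 (33.2 CPM) and Sprr1b (63.9 CPM). EpCAM-high library 1 was lowest for Arl13b (70.000 CPM) and Slc6a11 (102 CPM). EpCAM-high library 3 was highest for Dcn (23.6 CPM). EpCAM-high library 4 was highest for Pmp22 (5.64 CPM). EpCAM-high library 4 was lowest for Slc7a11 (6.72 CPM). EpCAM-low library 1 was highest for Apcdd1 (80.9 CPM) and Epcam (141 CPM). EpCAM-low library 2 was highest for Lum (1.98 CPM) and Wdr72 (0.198 CPM). EpCAM-low library 3 was lowest for Gli2 (5.97 CPM), Krt20 (1.84 CPM) and Krt6a (455 CPM). EpCAM-low library 4 was highest for Id2 (50.3 CPM) and Lgr5 (14.3 CPM). EpCAM-low library 4 was lowest for Ly6a (64.5 CPM). Without EpCAM-high library 1 the log2 folds were Krt4 -3.84, Mt4 -3.52, Krt32 -3.08, Sprr1b -1.64 and Krt10 2.94, each still past the threshold.

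The gate difference changed between the weeks, by the interaction test of edgeR at an adjusted p under 0.05, for 90 of the 194 genes, and the values below are the log2 fold at 7 weeks minus that at 3 weeks. It was more positive at 7 weeks for 57 of them. Among Hedgehog and cilium genes it was so for Gli1 (1.63), Gli2 (1.63), Ptch1 (1.41), Kif7 (1.07), Gpr161 (0.96), Gas1 (0.72) and Tulp3 (0.59). Among keratins it was so for Krt17 (2.93), Krt75 (2.48), Krt6b (0.79) and Krt6a (0.70). Among Wnt genes it was so for Wnt5a (2.09), Lgr5 (1.77), Lgr6 (1.39), Wnt5b (1.36), Fzd3 (0.85), Fzd1 (0.61) and Tcf7l2 (0.34). The widest of the remaining ones were B4galt5 (3.86), Cdh11 (3.76), Inpp5j (3.32), Cald1 (3.16), Oit1 (1.91), Slit3 (1.83), Slc6a11 (1.82), Ces1f (1.81), Srgap1 (1.77), Cxcl14 (1.77), Pthlh (1.71), Cldn1 (1.71), Ntf3 (1.70) and Fndc1 (1.60). Next came Bdnf (1.56), Igfbp5 (1.50), Bmp6 (1.42), Foxc1 (1.37), Tnc (1.35), Fbln2 (1.34), Anpep (1.31), Epha7 (1.31), Sox4 (1.26), Cbr2 (1.15), Epha4 (1.14), Ephb2 (1.07), Ephb4 (1.04) and Pygb (1.02). The smallest were Lamb1 (0.86), Nfatc1 (0.72), Sox2 (0.69), Sox9 (0.62), Efnb2 (0.52), Cux1 (0.52), Lama3 (0.50), Adh7 (0.46), Itgb1 (0.44), Lama5 (0.41) and Epcam (0.35). It was more negative at 7 weeks for 33. Keratins, factors and products of squamous cells were Mt4 (-1.67), Maf (-1.48), Krt4 (-1.24), Ovol1 (-1.22), Krt32 (-1.18), Barx2 (-1.05), Tfap2c (-0.76), Zfp750 (-0.74), Grhl1 (-0.55), Krt13 (-0.53), Pax9 (-0.51) and Krt15 (-0.40). The others were Pappa (-2.69), Slc7a11 (-2.14), Pde4b (-1.60), Gpnmb (-1.58), Lypd6 (-1.50), Dynap (-1.49), Car12 (-1.48), Pmp22 (-1.35), Ptgs1 (-1.31), Igfbp2 (-1.27), H19 (-1.25), Ly6a (-1.08), Them5 (-0.79), Plxna2 (-0.78), Gstp1 (-0.71), Sema3d (-0.68), Kitl (-0.60), Wfdc2 (-0.47), Epas1 (-0.45), Notch3 (-0.45) and Gstm1 (-0.37). Most of the 3-week libraries looked female and all 7-week libraries male, and when the 6 female-looking ones were left out 100 differences passed in all in place of 1099.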

How the results depend on the processing

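The number of genes passing at 7 weeks was 6920 and stayed between 5584 and 7902 in other settings: 6893 with RLE size factors, 6791 with library totals, 6906 without a filter on low counts, 6418 with DESeq2, 5584 when the 6 WT libraries joined the fit, 6071 with the 8 libraries of 7 weeks alone, and 6203 to 6714 when single libraries were left out. Leaving out the 6 libraries of 3 weeks with Xist, an alternative chosen after seeing the data, gave 6442. The scaling moved the median of all genes from -0.02 to -0.01 (RLE) or 0.03 (library totals). At 3 weeks the 4087 calls fell to 2625 with WT in the fit. The 1099 differences between the weeks became 398 with WT, 100 without the Xist libraries and 883 to 1152 when single libraries were left out; the cause was not tested, except that the Xist setting leaves 1 library a gate at 3 weeks.

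Labels give the gates the same replicate numbers. Same-numbered libraries of 7 weeks deviated together with r of 0.207, 0.176, 0.187 and 0.0746 across 15484 genes, where 1 pair is under 0.1 and EpCAM-low library 4 correlated best with EpCAM-high library 3 (0.141). Across the 9632 genes at 10 CPM or more r was 0.349, 0.364, 0.329 and 0.127, all over 0.1, and at 3 weeks it was 0.165 to 0.295 and 0.397 to 0.645. Each EpCAM-high library correlated best with the EpCAM-low library of its own number, at both weeks and in both sets of genes. Seen from EpCAM-low library 4 of 7 weeks, EpCAM-high library 3 was again the best match among genes at 10 CPM or more (0.229). The labels do not tie the numbers to animals, so whether they pair libraries was not settled, and values without a block are given first. With a replicate block 7902 genes passed at 7 weeks (7107 with the 8 libraries of 7 weeks alone) and 2243 differences between the weeks.

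Of 194 named genes 184 had passed at 7 weeks, and all 184 kept their direction in every alternative that gave them an adjusted p. There were 17 alternatives, and Krt1 and Gata6 had an adjusted p in 15 of them. The call held in every such alternative for 171 genes. It was lost with WT in the fit for Boc, Edar, Gas1, Fos, Lum, Col17a1, Evpl, Krtdap, Lgr4, Mki67 and Ppl, with library totals for Boc, Fos and Gas1, with DESeq2 for Edar, Gas1 and Lum, without a filter for Edar and Gas1, with the 8 libraries of 7 weeks alone for Col17a1, Fos and Gas1, without the Xist libraries for Gas1, and when a single library was left out for Boc (EpCAM-high 1 or 2, EpCAM-low 3), Edar (EpCAM-high 4, EpCAM-low 1), Fos (EpCAM-high 4, EpCAM-low 1 or 3), Gas1 (EpCAM-high 2 or 3, EpCAM-low 1, 2 or 4), Lum (EpCAM-high 2 or 4, any EpCAM-low but 2), Col17a1 (EpCAM-high 1), Krt18 and Tjp1. Col1a1, which had missed the threshold, passed in 8 alternatives, and Dsp with the replicate block, which changed no other call among the named genes. Uncalled genes near 0 changed sign: Krt5 with RLE (0.00366), library totals (0.0383), no filter (0.00488), DESeq2 (0.00218), the 8 libraries without (0.016) and with replicate block (0.00911) and without the Xist libraries (0.00597), and Top2a with library totals (0.00976). When single libraries were left out the log2 folds of uncalled genes ran from -0.088 to 0.073 for Krt5, -0.12 to 0.038 for Top2a, -0.031 to 0.10 for Cdh1, -0.044 to 0.20 for Cdk1, -0.18 to 0.0298 for Dcn and -0.30 to 0.13 for Krt19. Those of genes that lost the call ran from -0.37 to -0.26 for Boc, -0.86 to -0.64 for Edar, -0.37 to -0.22 for Fos, -0.41 to -0.27 for Gas1, 1.06 to 1.71 for Lum, -0.36 to -0.19 for Col17a1, -1.80 to -1.06 for Krt18 and 0.17 to 0.30 for Tjp1.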

Other observations

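Other genes with large folds or large changes between the weeks did not enter the lists. Col14a1, a collagen of fibrous tissue, was at 9.99 ± 3.72 against 0.521 ± 0.511 CPM at 7 weeks (log2 fold 4.17 ± 0.40, 3.05 ± 0.72 more than at 3 weeks), Dpysl3, a protein of growing axons, at 11.6 ± 1.35 against 0.249 ± 0.289 CPM (5.23 ± 0.34) and Tex47 at 6.27 ± 2.35 against 0.154 ± 0.181 CPM (5.07 ± 0.56). Lower in EpCAM-high cells were Arhgdib (0.467 ± 0.466 against 7.29 ± 0.997 CPM, -4.00 ± 0.38), Zmat4 (0.546 ± 0.408 against 6.97 ± 2.902 CPM, -3.76 ± 0.41), Emb, a membrane glycoprotein (3.75 ± 1.37 against 42.9 ± 5.35 CPM, -3.59 ± 0.17), Samd12 (1.75 ± 0.196 against 10.8 ± 0.632 CPM, -2.65 ± 0.24) and Gstm6, a glutathione transferase (0.664 ± 0.374 against 6.27 ± 0.584 CPM, -3.27 ± 0.29).

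Among markers of other cell types a few passed at low levels. Tnnt3, a troponin of skeletal muscle, was at 2.52 ± 0.506 against 0.0766 ± 0.153 CPM, in EpCAM-low cells below the limit of 3 counts, while Acta2, an actin of smooth muscle, was at 1.39 ± 0.422 against 3.62 ± 0.699 CPM (-1.43 ± 0.33). Tubb3, a tubulin of neurons, was at 3.104 ± 1.05 against 1.56 ± 0.398 CPM (0.95 ± 0.33) and Egfl7, a secreted factor of endothelium, at 3.01 ± 0.648 against 4.53 ± 0.824 CPM (-0.63 ± 0.22).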
